A study of Homo sapiens with 24 samples.

Results

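INSIG1, HMGCS1, MSMO1, SQLE and ACAT2 are 5 genes of sterol synthesis and its feedback control, taken here from 10641 genes tested on 24 Affymetrix arrays of 4 human acute myeloid leukaemia cell lines. Each gene is annotated to 1 array feature, so no choice between features was needed, and all 5 passed the filter on low values, a group mean of at least 4.02 in 1 or more groups. They were chosen by their metformin changes: earlier results of these data had shown lower signals after metformin, with a change that differed between lines. Their metformin values are therefore given as a description, with no test. Differences between untreated lines were not used as such in the choice and are tested. The untreated levels are part of the metformin changes, however, so these tests are not independent of the choice.

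The lines were HL60 (promyelocytic), KG1a (CD34-positive and immature), MOLM14 and U937 (both monocytic). Cells were left untreated or received metformin at 10 mM over 24 h. Metformin is a biguanide, described by the study as blocking complex I of the respiratory chain. With 4 lines and 2 conditions there were 8 groups, and every group has arrays A, B and C. By the labels, oxidative phosphorylation is high in KG1a and MOLM14 and low in HL60 and U937, and the treated arrays of the first pair are labelled low. No genotype, transgene or other agent is named, and each line is a single established line. Whether replicate arrays represent separate cultures is not said, and the p-values therefore speak only of array-to-array spread. The untreated arrays enter both the metformin changes and the comparison of untreated lines.

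Values are log2 normalized signals, levels are means ± SD of 3 arrays, and differences of means carry a standard error (SE) from limma. Array medians lay between 3.99 and 4.08. HL60 untreated C (interquartile range 1.90) and U937 untreated C (1.99) had the narrowest spreads against 2.09 to 2.31 elsewhere, and with U937 metformin A they lay farthest from their group means. Of 12 blood cell markers 9 were measured. CD34 stood at 11.24 in untreated KG1a and at 3.53 to 3.61 in the other untreated lines, MPO at 12.48 in HL60, FLT3 at 10.38 in MOLM14 and LYZ at 9.88 in MOLM14 and 9.43 in U937. CSF1R in untreated U937 was 4.37, little above the array median. The granule genes did not single out HL60: AZU1 was 6.97 there against 10.10 in MOLM14 and 8.70 in U937, PRTN3 was 11.36 against 12.26 and 11.82, and MPO was 8.93 in MOLM14. With metformin MPO read 7.62 in MOLM14 and PRTN3 10.16 in HL60. Of 12 genes listed as markers of other cell types 6 were measured. Their log2 signals summed to between 22.6 and 26.5 in the 8 groups, and the highest was PECAM1 at 6.66 in treated MOLM14. PECAM1 differed between untreated lines, from 3.31 in HL60 to 6.65 in MOLM14, and read 3.17 and 6.66 in the same lines after metformin. Whether it marks another cell type in these lines was not tested, nor was its part in the line differences.

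Cells make cholesterol from acetyl-CoA through the mevalonate pathway and squalene. The supply is sensed in the membrane of the endoplasmic reticulum: when sterol is plentiful, INSIG proteins hold the escort SCAP, and with it the SREBP transcription factors, in place. When sterol is scarce, SCAP carries SREBP to the Golgi, where it is cut, and its free part enters the nucleus and binds sterol regulatory elements and E-boxes, often beside CCAAT boxes bound by NF-Y. INSIG1 is itself a target of SREBP, so its messenger RNA is commonly read together with those of the enzymes.

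The start-site windows of the genes show how the promoters of 3 of these 5 genes are built. They are printed because the genes share a regulator by textbook account, and because shared promoter letters are a property that the choice of genes did not use. RefSeq sequences of GRCh38.p14 were matched for INSIG1, HMGCS1 and MSMO1, as the 250 bases before the annotated gene start, 5′ to 3′ on the gene's strand. CCAAT boxes (CCAAT or its reverse complement ATTGG), E-boxes (CACGTG) and TATA boxes (TATAAA, with its reverse complement) are in capitals. GC boxes (GGGCGG or its reverse complement) were counted but left in lower case. No match of 1 kind of motif overlapped a match of another kind, and a pair of GC boxes in INSIG1 shared a base.
INSIG1, chr7:155297628-155297877, plus strand: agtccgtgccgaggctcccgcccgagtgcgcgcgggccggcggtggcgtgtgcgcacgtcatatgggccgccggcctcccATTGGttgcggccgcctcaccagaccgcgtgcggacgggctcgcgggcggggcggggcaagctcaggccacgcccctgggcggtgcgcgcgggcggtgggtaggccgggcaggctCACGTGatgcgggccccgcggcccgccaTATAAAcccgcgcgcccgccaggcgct
HMGCS1, chr5:43313413-43313662, minus strand: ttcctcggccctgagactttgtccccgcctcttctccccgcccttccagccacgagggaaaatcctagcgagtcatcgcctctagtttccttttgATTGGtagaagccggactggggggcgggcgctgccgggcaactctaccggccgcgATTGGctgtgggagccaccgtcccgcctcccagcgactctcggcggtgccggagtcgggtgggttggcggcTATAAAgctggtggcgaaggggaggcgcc
MSMO1, chr4:165327419-165327668, plus strand: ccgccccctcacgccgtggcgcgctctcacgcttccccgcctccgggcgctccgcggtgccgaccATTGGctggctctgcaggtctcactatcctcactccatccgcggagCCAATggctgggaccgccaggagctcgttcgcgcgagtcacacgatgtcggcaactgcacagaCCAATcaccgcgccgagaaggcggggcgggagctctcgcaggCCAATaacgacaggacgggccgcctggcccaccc

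All 3 windows held a CCAAT box, against 32% of 35116 such windows in the table. INSIG1 had 1, at 170 bases before the start on the reverse strand. HMGCS1 had 2, and MSMO1 had 4, a number reached by 0.874% of all windows. INSIG1 also had an E-box 55 bases before the start (6.34% of all windows hold 1 or more) and a TATA box 27 bases before it. HMGCS1 had a TATA box at 29 bases, and MSMO1 had none (10.7% of all windows hold 1 or more). GC boxes numbered 5 in INSIG1 and 2 each in HMGCS1 and MSMO1, against 42.6% of windows with at least 1. The letters TCACNCCAC, a strict form of the sterol regulatory element, searched on both strands, were in none of the 3 windows and in 0.883% of all. That says only that these letters are not in these stretches. Of 9 other tested synthesis genes with a window, 6 held a CCAAT box. INSIG2, the paralog of INSIG1, held 0. A match of letters is a description, not a site of binding, and promoters of this kind are rich in G and C: the 3 windows had 78.4%, 66.0% and 70.0% against a median of 58.0%.

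INSIG1, the sensor, differed widely between lines with no drug present. Its untreated signal was 9.58, 9.47 and 9.45 in U937 and 9.33, 9.28 and 9.17 in HL60. It was 8.37, 8.47 and 8.28 in KG1a and 8.24, 8.31 and 8.12 in MOLM14. The low oxidative phosphorylation lines were thus the high INSIG1 lines, and none of their arrays overlapped those of the other lines. The share of all genes that split in this way was not counted. With so few lines, the label cannot be told apart from the lines themselves. HMGCS1, MSMO1, SQLE and ACAT2 did not split by this label. MOLM14 (8.22 ± 0.10) minus U937 (9.50 ± 0.07) was -1.28 ± 0.09, and KG1a (8.37 ± 0.10) minus U937 was -1.13 ± 0.09 (limma adjusted p = 1.03e-11 and 1.17e-10). HL60 (9.26 ± 0.09) exceeded KG1a by 0.89 ± 0.09 and MOLM14 by 1.04 ± 0.09 (limma adjusted p = 9.02e-09 and 5.25e-10). The difference between HL60 and U937 was small (-0.24 ± 0.09, limma adjusted p = 0.0297), and its limma adjusted p lay between 0.00515 and 0.113 over the alternatives. It lost the call without untreated HL60 C, without untreated U937 A and without the 3 arrays that stand apart. KG1a and MOLM14 were not told apart (0.15, 95% interval -0.04 to 0.34, adjusted p = 0.169). As in all bulk measurements, a lower signal from fewer cells with the transcript cannot be told apart from less of it per cell.

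HMGCS1 makes HMG-CoA, an early intermediate of the mevalonate pathway. Its untreated signal was 9.08, 8.86 and 8.64 in HL60, 8.11, 8.23 and 8.14 in KG1a, 6.66, 6.57 and 6.81 in MOLM14 and 6.66, 6.73 and 6.64 in U937. HL60 and KG1a therefore stood high and MOLM14 and U937 low, with no overlap between these pairs. HL60 exceeded MOLM14 and U937 by 2.18 ± 0.10 each (limma adjusted p = 1.56e-15 and 1.55e-15), and KG1a exceeded each of them by 1.48 ± 0.10 (limma adjusted p = 3.76e-12 and 3.71e-12). HL60 was above KG1a by 0.70 ± 0.10 (limma adjusted p = 1.94e-06). MOLM14 and U937 had the same mean of 6.68, and the 95% interval of their difference ran from -0.21 to 0.21.

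MSMO1, which starts the removal of the methyl groups at carbon 4 of the sterol ring, was ordered like HMGCS1 in untreated cells. HL60 gave 9.52, 9.44 and 9.33, KG1a 8.50, 8.66 and 8.69, MOLM14 7.73, 8.0 and 7.94, and U937 8.11, 7.99 and 7.89. The arrays of HL60 lay above all others and those of KG1a above MOLM14 and U937, which overlapped. HL60 exceeded MOLM14 by 1.54 ± 0.11, U937 by 1.43 ± 0.11 and KG1a by 0.81 ± 0.11 (largest limma adjusted p 1.21e-06). KG1a exceeded MOLM14 by 0.73 ± 0.11 and U937 by 0.62 ± 0.11 (limma adjusted p = 6.16e-06 and 5.09e-05). MOLM14 minus U937 was -0.11, with a 95% interval of -0.34 to 0.13.

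SQLE, squalene epoxidase, which commits squalene to sterols, had another order. KG1a was highest, at 9.89, 10.01 and 9.93, followed by U937 at 8.84, 8.80 and 8.76, HL60 at 8.24, 8.22 and 8.07, and MOLM14 at 7.35, 7.43 and 7.37. No arrays of any pair overlapped, and SQLE was the member for which all 6 pairs of untreated lines passed. KG1a exceeded MOLM14 by 2.56 ± 0.08, the widest untreated difference of the 5 genes (limma adjusted p = 2.94e-19). KG1a was also above HL60, the HL60 minus KG1a difference being -1.77 ± 0.08 (limma adjusted p = 5.85e-16), whereas HMGCS1 and MSMO1 were higher in HL60.

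ACAT2, the cytosolic thiolase that joins 2 acetyl-CoA molecules at the head of the pathway, varied least. Its untreated signal was 8.86, 8.57 and 8.81 in HL60, 8.56, 8.47 and 8.61 in KG1a, 8.39, 8.51 and 8.55 in U937 and 8.23, 8.01 and 8.17 in MOLM14. Only MOLM14 stood apart from every other line: HL60 exceeded it by 0.61 ± 0.11, KG1a by 0.41 ± 0.11, and MOLM14 minus U937 was -0.35 ± 0.11 (limma adjusted p = 2.87e-05, 0.00203 and 0.00764). HL60 minus U937 was 0.26 ± 0.11 (limma adjusted p = 0.041). That call was lost in 8 of 32 alternatives, where the limma adjusted p reached 0.206: quantile normalization, centred arrays, no filter, without the 3 arrays that stand apart, and without untreated HL60 A or C or untreated U937 A or B. HL60 minus KG1a (0.20, 95% interval -0.02 to 0.42) and KG1a minus U937 (0.06, 95% interval -0.16 to 0.29) did not pass, though the first passed without untreated HL60 B. Per RefSeq, ACAT2 overlaps TCP1 and SOD2, so a part of its signal could come from these genes if the array feature covers the shared stretch, which was not tested.

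**Figure D1:**
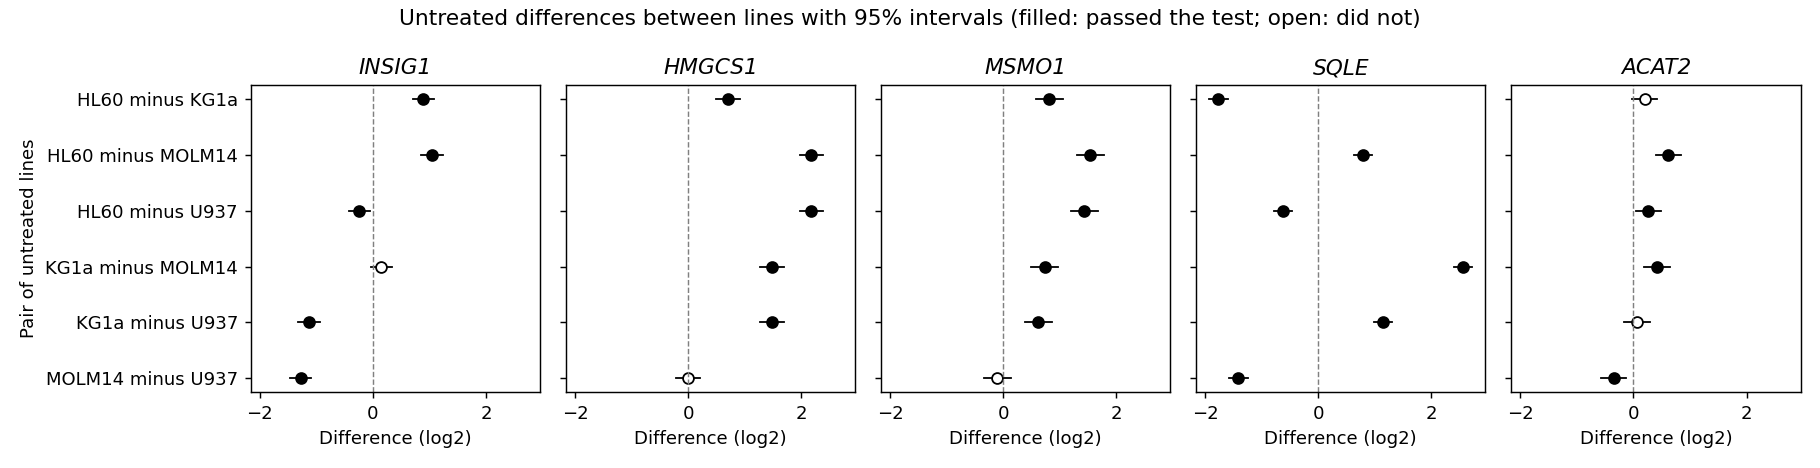
Differences of mean log2 signal between pairs of untreated lines for the 5 genes, first line minus second, with 95% intervals from limma (3 arrays per line). Filled points passed an adjusted p of 0.05. SQLE has 6 filled points, ACAT2 has 4 and the other genes have 5 each.

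In all, 25 of 30 comparisons of a gene between 2 untreated lines passed, p-values being adjusted over all genes and the 6 pairs together. Over all genes 58.1% of such comparisons passed. That share is given for scale, since the untreated arrays also entered the changes that chose the genes. By pair, that share was 57.5% for HL60 and KG1a, 56.8% for HL60 and MOLM14, 56.1% for HL60 and U937, 60.8% for KG1a and MOLM14, 61.6% for KG1a and U937 and 55.9% for MOLM14 and U937. The shares of all genes whose arrays did not overlap in these pairs were, in the same order, 59.8%, 58.8%, 57.2%, 65.7%, 65.2% and 60.2%. A difference between untreated lines was therefore the common case among all genes. By the F test over the 4 lines, all 5 genes passed (largest adjusted p 0.000155, for ACAT2), against 83.2% of all genes tested, and 10 of the 11 other synthesis genes did. The F test counts lie near their background. The widths were 2.56 for SQLE, 2.18 for HMGCS1, 1.54 for MSMO1, 1.28 for INSIG1 and 0.61 for ACAT2 (highest minus lowest untreated line mean). The enzymes did not share 1 order: HL60 led for HMGCS1, MSMO1 and ACAT2, KG1a for SQLE and U937 for INSIG1.

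After metformin, INSIG1 was lower in 3 of the 4 lines. The treated arrays read 7.42, 7.48 and 7.25 in U937, 7.66, 7.56 and 7.46 in HL60, 7.01, 7.09 and 7.09 in MOLM14 and 8.05, 8.40 and 8.34 in KG1a. In U937, HL60 and MOLM14 no treated array reached the lowest untreated one, while in KG1a the arrays overlapped. The change was -2.12 ± 0.09 in U937, leaving 23.1% of the untreated signal, -1.70 ± 0.09 in HL60 (30.7%), -1.16 ± 0.09 in MOLM14 (44.9%) and -0.11 ± 0.09 in KG1a (92.8%). Of the 10641 genes, INSIG1 had the lowest change in U937. The KG1a value rested on 1 array: without metformin A it was 0.00.

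HMGCS1 had its largest difference in HL60, not in U937. Its treated arrays read 6.51, 6.59 and 6.46 in HL60, 5.49, 5.59 and 5.75 in U937, 6.22, 6.23 and 5.94 in MOLM14 and 8.27, 8.28 and 8.13 in KG1a. All treated arrays of the first 3 lines lay below their untreated ones, and those of KG1a overlapped. The change was -2.34 ± 0.10 in HL60 (19.8% of the untreated signal), the lowest of all genes in that line, -1.07 ± 0.10 in U937 (47.7%), -0.54 ± 0.10 in MOLM14 (68.6%) and 0.07 ± 0.10 in KG1a. HL60 minus U937 was -1.27 ± 0.14 for HMGCS1 and 0.41 ± 0.13 for INSIG1. The sensor and the enzyme thus had opposite orders in the low oxidative phosphorylation lines, a difference that was not tested because the changes chose the genes.

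MSMO1 was lower by a similar amount in those lines. Its treated arrays read 8.22, 8.18 and 8.28 in HL60, 6.43, 6.62 and 7.00 in U937, 7.50, 7.40 and 7.23 in MOLM14 and 8.65, 8.89 and 8.73 in KG1a. The treated U937 arrays were the most scattered of any group of this gene. The change was -1.32 ± 0.11 in U937 (40.2% of the untreated signal), -1.20 ± 0.11 in HL60 (43.5%), -0.52 ± 0.11 in MOLM14 (69.9%) and 0.14 ± 0.11 in KG1a.

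SQLE read 6.96, 6.97 and 6.94 in treated HL60, 8.01, 7.73 and 7.96 in U937, 7.00, 6.95 and 7.06 in MOLM14 and 10.09, 9.94 and 10.10 in KG1a. Again KG1a was the line whose arrays overlapped. The change was -1.22 ± 0.08 in HL60 (43.0%), -0.90 ± 0.08 in U937 (53.6%), -0.38 ± 0.08 in MOLM14 (76.6%) and 0.10 ± 0.08 in KG1a.

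ACAT2 read 7.12, 7.42 and 7.18 in treated HL60, 7.60, 7.99 and 7.98 in U937, 7.68, 7.45 and 7.58 in MOLM14 and 8.65, 8.84 and 8.74 in KG1a. Here the treated KG1a arrays lay above all untreated KG1a arrays, while in the other lines they lay below. The share of all genes that lay above in this way in KG1a was not counted. The change was -1.51 ± 0.11 in HL60 (35.2%), -0.63 ± 0.11 in U937 (64.7%), -0.56 ± 0.11 in MOLM14 (67.6%) and 0.20 ± 0.11 in KG1a (115% of the untreated signal).

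**Figure D2:**
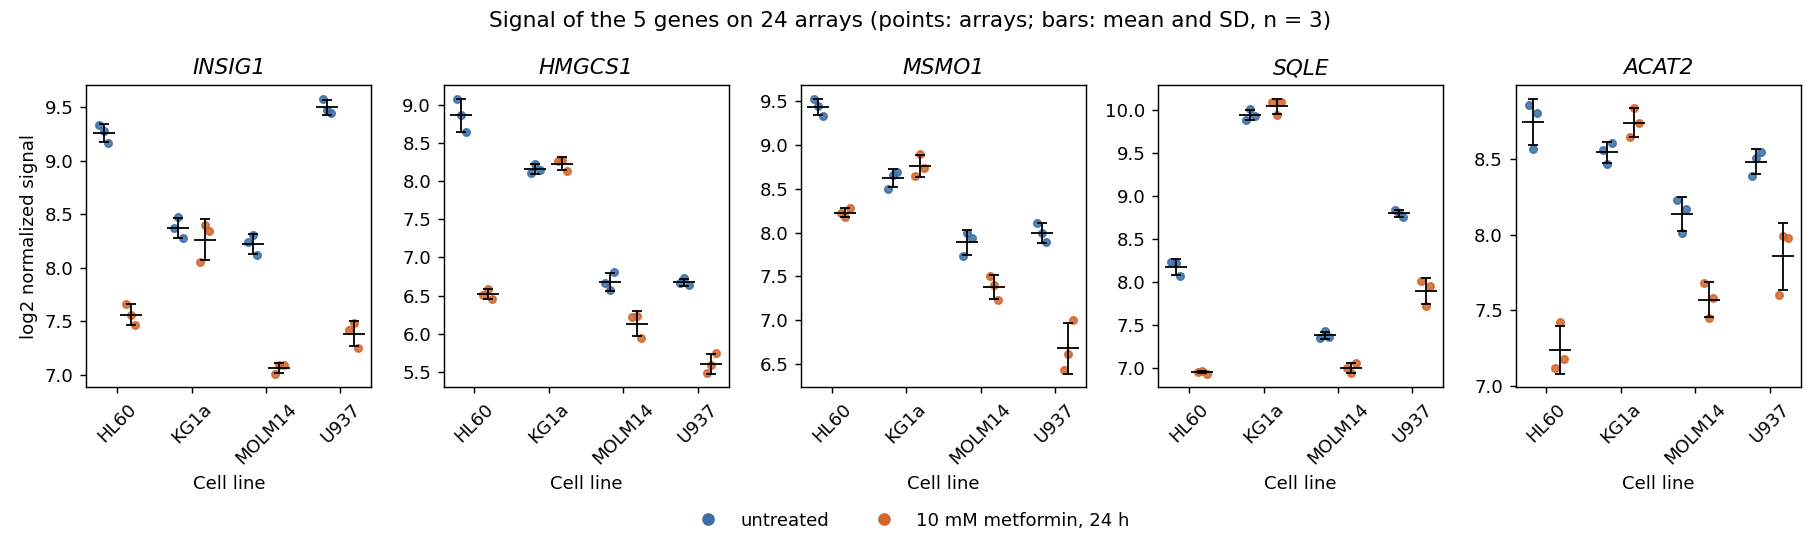
Log2 normalized signal of the 5 genes on the 24 arrays, by cell line, untreated (blue) and with metformin (orange); points are arrays and bars are the mean and SD of 3. Treated arrays lie below the untreated ones in HL60, MOLM14 and U937 for all 5 genes. In KG1a the arrays overlap for 4 genes, with INSIG1 in treated array A (8.05) below the untreated ones, and the treated ACAT2 arrays lie above; each panel has its own axis.

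Set out by line, all 5 genes were lower without overlap in HL60, MOLM14 and U937 and 0 of 5 in KG1a. Of all genes tested, 16% were lower without overlap in HL60, 13.0% in MOLM14, 16.3% in U937 and 13.7% in KG1a, and 3.57% in HL60, MOLM14 and U937 together. These shares are given beside the counts only for scale, since this contrast chose the genes. The median change of the 5 genes was -1.51 in HL60, -1.07 in U937, -0.54 in MOLM14 and 0.10 in KG1a, where the medians of all genes were between -0.02 and 0.00. Averaged over the 4 lines the changes were -1.27 ± 0.05 for INSIG1, -0.97 ± 0.05 for HMGCS1, -0.72 ± 0.06 for MSMO1, -0.63 ± 0.05 for ACAT2 and -0.60 ± 0.04 for SQLE. These means depend on the lines that enter them. Without HL60 they were -0.51 for HMGCS1, -0.33 for ACAT2 and -0.39 for SQLE.

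Metformin also reordered the groups. With KG1a left aside, the lines differed less after treatment for INSIG1, where the highest minus the lowest line mean was 1.28 untreated and 0.49 treated, for HMGCS1 (2.18 and 0.91) and for SQLE (1.42 and 0.94). For MSMO1 (1.54 and 1.55) and ACAT2 (0.61 and 0.62) the width was the same. With KG1a counted, the widths after treatment were larger for HMGCS1 (2.62), MSMO1 (2.07), SQLE (3.08) and ACAT2 (1.50). For INSIG1 the width with KG1a was 1.20 treated against 1.28 untreated, so most of its narrowing was not seen. In the order of the 8 groups, INSIG1 ran from untreated U937 (9.50) through untreated HL60, untreated and treated KG1a and untreated MOLM14 to treated HL60 (7.56), U937 (7.38) and MOLM14 (7.06). Neighbours whose arrays overlapped were the 2 KG1a groups, treated KG1a and untreated MOLM14, and treated HL60 and U937. For HMGCS1, treated HL60 (6.52) ended just below untreated MOLM14 and U937. For SQLE, treated HL60 (6.96) was lowest, overlapping treated MOLM14 (7.00). For MSMO1, treated HL60 (8.23) still lay above untreated U937 (8.0), and treated U937 (6.68) was lowest. For ACAT2, treated HL60 (7.24) was lowest although untreated HL60 (8.75) was highest, level with treated KG1a (8.74).

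The other enzymes of cholesterol synthesis, none of them used in the choice, mostly moved the same way. Of 18 further genes on a textbook list, 12 were measured and 11 passed the filter on low values. Of these 11, 9 fell in the mean of the 4 lines and 0 rose, against 16.1% of all genes that were called lower and 16.3% called higher. Their median change was -0.46, against -0.01 for all genes. The list was written with earlier results of these data known, and the 4 lines' changes share the same fit.

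By line, 9 of the 11 fell in HL60, 8 in U937, 6 in MOLM14 and 1 in KG1a, and none rose in any line. The shares of all genes called lower were 9.56% in HL60, 9.74% in U937, 2.57% in MOLM14 and 1.67% in KG1a. Those called higher were 15.5%, 7.46%, 2.48% and 0.818%. In HL60 the share called lower was 14.5% after quantile normalization and 6.47% once arrays were centred. Over the alternatives 8 or 9 of the 11 genes fell in HL60. The MOLM14 count was 3 without metformin C. The median change of the 11 was -0.58 in HL60, -0.62 in U937, -0.30 in MOLM14 and -0.08 in KG1a. In KG1a the gene that passed was also the only one with an unadjusted p under 0.05.

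Among the mevalonate enzymes, mevalonate kinase (MVK) fell by 0.96 in HL60, 0.62 in U937 and 0.44 in MOLM14, with SE 0.10 each. The decarboxylase MVD fell by 1.20 in HL60 and 0.63 in U937 and read -0.36 ± 0.11 in MOLM14, where it missed the threshold but passed after quantile normalization and under a stricter filter. Treated HL60 means of MVD (4.10) and MVK (4.40) lay near the array median, where differences can be compressed. IDI1, which interconverts the 5-carbon isoprenoid units, fell by 1.20 in HL60, 0.81 in U937 and 0.45 in MOLM14, with SE 0.11 each, and lost the MOLM14 call without treated MOLM14 C. FDPS, farnesyl diphosphate synthase, fell in HL60 (-0.58 ± 0.09) and U937 (-0.36 ± 0.09), and its second array feature gave -0.74 and -0.53. Phosphomevalonate kinase (PMVK) was the 1 gene that fell in KG1a (-0.66 ± 0.14, limma adjusted p = 0.0143). It lost that call without untreated KG1a C or without treated KG1a A. PMVK also fell in U937 (-0.65 ± 0.14) and HL60 (-0.50 ± 0.14), where the call was lost without untreated or treated HL60 A.

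Among the enzymes after squalene, DHCR7, which makes the last reduction to cholesterol, fell by 1.15 in HL60, 0.67 in U937 and 0.45 in MOLM14, with SE 0.09 each, and read 0.15 ± 0.09 in KG1a. NSDHL, a partner of MSMO1 in demethylation, fell by 0.80 in HL60, 0.66 in U937 and 0.30 in MOLM14. The isomerase EBP fell by 0.54, 0.42 and 0.28 in the same lines. The MOLM14 call of EBP was lost without any 1 of the 6 MOLM14 arrays, and that of NSDHL without any of them but untreated B. NSDHL also lost it without untreated HL60 B, with no filter and with the replicate block, and both lost it with centred arrays. HSD17B7, the ketoreductase of the same demethylation, fell in HL60 (-0.48 ± 0.13) and MOLM14 (-0.66 ± 0.13), the HL60 call being lost without treated HL60 B. In U937 both of its groups, at 3.26 and 3.20, lay under the array median. LBR and TM7SF2, which share a sterol reductase activity, did not pass in any line (LBR in U937, at -0.22 ± 0.09, passed in 3 alternatives, among them the fit without untreated U937 C), with means over the lines of -0.02 ± 0.04 and -0.07 ± 0.05. TM7SF2 lay near the array median in every group (3.97 to 4.69).

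The change itself differed between the 4 lines for 8 of the 11 genes by limma's F test, against 10.0% of all genes. The smallest adjusted p values were those of DHCR7 (6.08e-07) and IDI1 (1.55e-05). PMVK (adjusted p = 0.283), TM7SF2 (0.445) and LBR (0.14) did not pass this limma test.

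**Figure D3:**
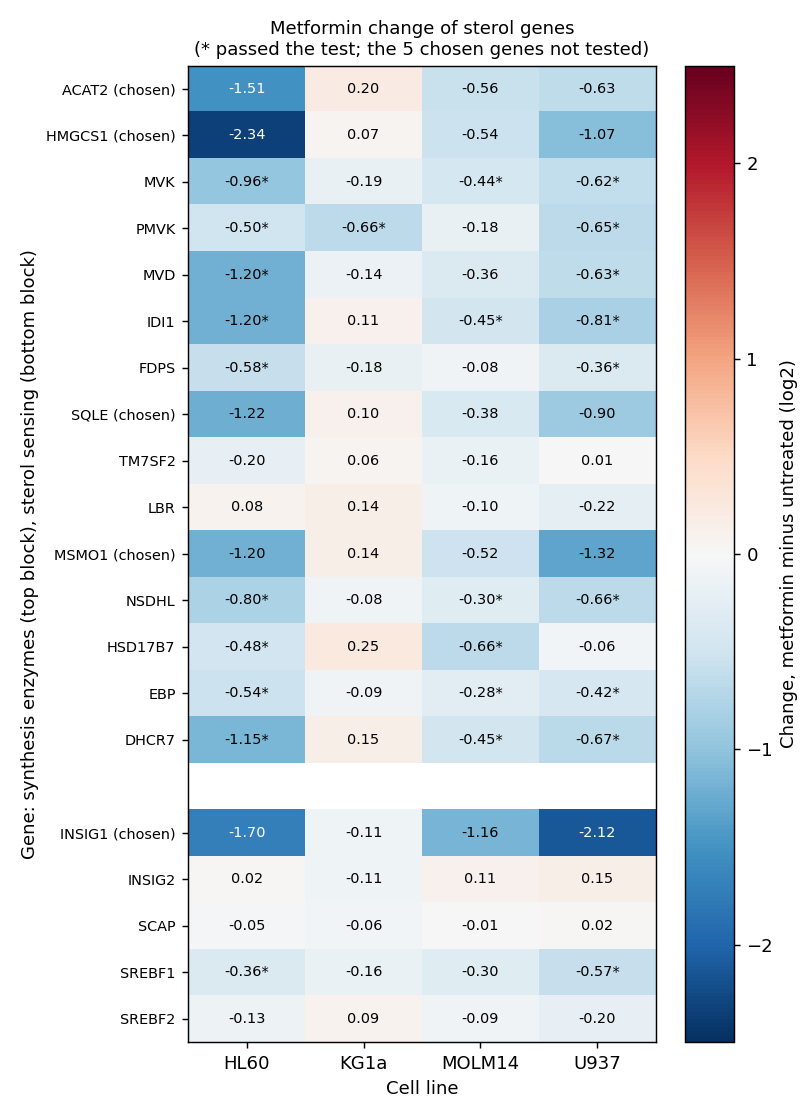
Change of log2 signal with metformin (metformin minus untreated mean, 3 arrays each) in the 4 lines, for the synthesis enzymes in pathway order (top block) and for genes of sterol sensing (bottom block). Asterisks mark an adjusted p under 0.05 in genes outside the 5 chosen ones; the HL60 column runs from -2.34 for HMGCS1 to 0.08 for LBR and the KG1a column from -0.66 for PMVK to 0.25 for HSD17B7.

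The other measured parts of the sensing machinery gave smaller values than INSIG1. That difference was not tested and says little, because INSIG1 was chosen by its change. INSIG2, its paralog, read 0.02 ± 0.12 in HL60, 0.15 ± 0.12 in U937, 0.11 ± 0.12 in MOLM14 and -0.11 ± 0.12 in KG1a and passed in none (limma adjusted p of the mean 0.619). SCAP, the escort, had a mean of -0.03 ± 0.05 and SREBF2, which encodes the SREBP most tied to sterol genes, one of -0.08 ± 0.04, and neither passed. SREBF2 did pass after quantile normalization. SREBF1 fell in the mean (-0.35 ± 0.06, limma adjusted p = 4.21e-05), with -0.57 ± 0.11 in U937 and -0.36 ± 0.11 in HL60, the latter call being lost without untreated HL60 A or B, without treated HL60 C and with centred arrays. In all, 8 of 15 listed genes of SREBP control and sterol-driven protein turnover besides INSIG1 were tested. Of these, 1 fell and 3 rose in the mean, with a median change of 0.01, where 16.1% of all genes were called lower and 16.3% higher. The 3 were ERLIN2 (0.25 ± 0.05), which acts with its partner in protein breakdown at the endoplasmic reticulum, that partner ERLIN1 (0.17 ± 0.05) and the ubiquitin ligase gene RNF145 (0.20 ± 0.05), of which the last 2 were named after their values were seen. RNF145 passed in HL60 alone (0.66 ± 0.10), with 0.14 in KG1a, 0.05 in MOLM14 and -0.04 in U937, and its change differed between lines (limma F test, adjusted p = 0.00633). In KG1a 0 of the 8 passed limma's test, and 0 had an unadjusted p under 0.05.

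Of 14 listed genes of cholesterol uptake and transport 7 were tested. In the mean 2 fell and 1 rose, where 16.1% of all genes were called lower and 16.3% higher. STARD4, a sterol carrier, fell in the mean (-0.44 ± 0.05), by 0.86 in U937 and 0.62 in HL60, and read 0.03 ± 0.10 in KG1a. In MOLM14 STARD4 read -0.33 ± 0.10 and narrowly missed the threshold (limma adjusted p = 0.051). It missed it in 22 of 32 alternatives and passed in the rest. TMEM97, a sterol-responsive membrane protein, fell in the mean (-0.30 ± 0.05), by 0.55 in U937 and 0.47 in HL60. GRAMD1A, which moves sterol from the plasma membrane, rose (0.30 ± 0.04), by 0.54 in HL60, 0.41 in MOLM14 and 0.30 in U937, the U937 call being lost without untreated C, without treated A or C, and with all 3 arrays that stand apart removed. The median of the 7 was -0.02.

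Of 11 genes of efflux and esterification 4 were tested, and limma called 0 of them in the mean, with 1 at an unadjusted p under 0.05. With 16.1% and 16.3% of all genes called lower and higher, a count of 0 among 4 is near the background. MYLIP, a ubiquitin ligase, read -0.12 ± 0.05 (limma adjusted p = 0.0876) and APOE 0.09 ± 0.06, the latter near the array median. MYLIP passed in 4 alternatives, namely after quantile normalization, without untreated HL60 C, without untreated U937 C and without the 3 arrays that stand apart. Of 12 genes of the isoprenoid branches 2 were tested and both fell in the mean: NUS1 (-0.29 ± 0.05) and DHDDS (-0.17 ± 0.04), subunits of the enzyme that makes dolichol. The share of all genes called lower was 16.1%. DHDDS passed in HL60 alone (-0.38 ± 0.09), with -0.21 in KG1a, -0.06 in MOLM14 and -0.04 in U937. ABCA1 and ABCG1 are not analysed here.

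Of the fatty acid synthesis genes, 9 of 10 were tested, and 8 fell in the mean of the lines with a median of -0.32, against 16.1% of all genes. The mean calls of ELOVL6 (-0.13 ± 0.05) and ACSS2 (-0.13 ± 0.05), named after their values were seen, were kept in 12 and 26 of 32 alternatives. The other mean calls of this list, among them SCD (-0.52 ± 0.04), were kept in all 32. SCD read -0.91 ± 0.08 in HL60, -0.56 ± 0.08 in U937, -0.48 ± 0.08 in MOLM14 and -0.12 ± 0.08 in KG1a. FASN read -1.49 ± 0.08 in HL60, -1.16 ± 0.08 in U937, -0.54 ± 0.08 in MOLM14 and -0.29 ± 0.08 in KG1a, where it missed the threshold (limma adjusted p = 0.0559) and passed in 5 of 32 alternatives, among them without treated KG1a B or without untreated U937 C. In KG1a limma called 0 of the 9, with 2 at an unadjusted p under 0.05.

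Likeness to the 5 genes was measured as Pearson's r over the 24 arrays after each line's mean was taken from its values, so that it follows treatment and not line. The points share 4 lines and 1 treatment, so many genes with large metformin changes reach a high r, and the values are a description. With INSIG1, the members had r = 0.95 (MSMO1), 0.93 (SQLE), 0.87 (HMGCS1) and 0.84 (ACAT2). HMGCS1 was most like SQLE and ACAT2 (0.96 each). The 8 genes outside the 5 most like INSIG1 were FASN, HSPA1B and HNRNPM (0.95 each), and STARD4, NSDHL, NOP10, CDC6 and DCTPP1 (0.94 each). HSPA1B has a near-identical copy, so its own value is uncertain. STARD4 and NSDHL belong to the sterol lists, CDC6 licenses DNA replication and HNRNPM is a splicing factor.

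The genes most like the mean of the 5 were FASN, IDI1 and DHCR7 (0.97 each), NSDHL, MCM3 and SCD (0.96 each), and SLC38A12 and FEN1 (0.95 each). Of these, IDI1, DHCR7 and NSDHL are sterol enzymes, FASN and SCD make fatty acids, and MCM3 and FEN1 act in DNA replication. The genes most opposed to the mean of the 5 were ZC3H6, DDIT4 and DDIT3 (-0.97 each). DDIT3, which encodes the stress factor CHOP, read 2.43 in HL60, 1.61 in U937, 0.68 in MOLM14 and 0.03 in KG1a. The median of the 5 sterol genes had the same line order with the sign turned, which follows from naming DDIT3 by its low r. INSIG1 (-2.12) and MSMO1 (-1.32) had their largest fall in U937 instead. Most opposed to INSIG1 were IARS1 (-0.97), ZC3H6 (-0.95) and RHOT1 (-0.94).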

How the data were processed

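RNA (250 ng per sample) was labelled and hybridized to Affymetrix arrays, per the labels' protocols. The authors deposited 1 log2 normalized signal per feature and sample, on a log2 scale as judged from its range of 1.88 to 14.2. The submitters' processing notes name Partek. How background, normalization and probe summaries were handled is not stated in these sources. The number of arrays limits the precision.

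Of 53617 rows, 16098 name 1 gene in GEO's platform annotation, all matched to RefSeq of GRCh38.p14, and 14884 genes were used by their row of highest mean. The 10641 genes with a group mean of at least 4.02, the median of all values, were tested with limma 3.58.1 (R 4.3.3), with 8 group means, 16 residual degrees of freedom and Benjamini-Hochberg adjustment at 0.05. Untreated pairs were adjusted over genes and the 6 pairs together. The fit was tested on simulated data. Figures used matplotlib 3.10.9.

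The 5 genes, the gene lists and the 3 arrays that stand apart were chosen with earlier results of these data known. Most genes were named by rule: the 5 genes, all tested synthesis genes and a fixed set of sterol genes. The rule also took the 2 with the smallest p in each further list and the 8 most and 3 least alike in pattern. ERLIN1, RNF145, ELOVL6 and ACSS2 were named outside the rule, after their values were seen. Alternatives tried: array centring, quantile normalization, other filters, a variance trend, a replicate block, the mean of a gene's rows, and leaving out arrays or lines.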

Additional observations from a re-analysis of the deposited data

Results flagged for a closer look

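The metformin change differed between the 4 lines, by limma's F test adjusted over 10641 genes, for 8 synthesis enzymes outside the 5 chosen genes: DHCR7 (adjusted p = 6.08e-07), IDI1 (1.55e-05), MVD (0.000335), NSDHL (0.00072), MVK (0.00426), HSD17B7 (0.00426), EBP (0.0281) and FDPS (0.0376). For 7 of these the largest fall was in HL60, and for HSD17B7 it was in MOLM14. HSD17B7 lay under the array median in both U937 groups, so a change there would be compressed.

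ACAT2 was higher in all 3 treated KG1a arrays than in all 3 untreated ones (0.20 ± 0.11) and lower in all treated arrays of HL60, MOLM14 and U937. This difference was not tested. In KG1a 13.7% of all genes were lower without overlap, and the share higher without overlap was not counted.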

How the results depend on the processing

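The limits used were a factor of 1.5 for a count and 1 SD between replicates for a value. The count of synthesis genes that fell in KG1a (1 of 11) was 0 in a fit of the line's arrays alone and ranged from 0 to 1 over the fits that left out 1 array. The MOLM14 count (6) ranged from 3, without treated MOLM14 C, to 6 over those fits. The count of synthesis genes whose change differed between lines (8 of 11) ranged from 6 to 9 over the alternatives. It was 6 with arrays centred on their medians. The median change of the 5 genes (-0.72) was -0.51 without HL60 and -1.01 without KG1a, since lines with larger or smaller changes left the mean. The changes of the 5 genes kept their direction in each line under all 32 alternatives, except that of INSIG1 in KG1a, which went from -0.11 to 0.00 without treated KG1a A. The count of untreated comparisons stayed between 23 and 26 of 30, and the synthesis genes that fell in the mean of the lines between 8 and 9, over all alternatives run. With a replicate block these counts were 25 and 9, and no count moved by more than 1.5 times. The letters did not pair the arrays: deviations of same-lettered untreated and treated arrays correlated between -0.06 and 0.15 over 12 pairs. No signal over background could be used, so small changes near the array median are uncertain.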
